A study of Mus musculus with 5 samples.

Results

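The genes described here carry butyrate through the colon epithelium: transporters that bring it into the cell, enzymes of its mitochondrial oxidation, and an enzyme of ketone bodies. The 8 genes were taken by symbol, 2 transporters (Slc16a1 and Slc5a8) and 6 enzymes (Acads, Acadl, Echs1, Hadh, Acat1 and Bdh1), out of 52143 genes in the table. Each symbol named 1 entry, and all 8 members passed the filter on low values, which 10338 genes met (a TPM of at least 1 in at least 2 samples, where TPM is the abundance of a transcript relative to the total of its sample).

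RNA was sequenced from colon tumors of female mice. Tumors had been induced with the carcinogen azoxymethane (AOM, 10 mg/kg) and cycles of 2.0% dextran sulfate sodium (DSS), an agent that damages the epithelium, each lasting 5 days and followed by 14 days without it. The mice were 8 weeks old at the start, all received tamoxifen for 5 days, and tumors were taken on day 87. Control mice, 2 samples with replicate numbers 1 and 4, carried Villin1-Cre-ERT, a Cre recombinase that tamoxifen activates and that the villin promoter limits to intestinal epithelium. SIGLEC12 mice, 3 samples with replicate numbers 2, 3 and 4, carried the same Cre and 1 floxed allele of human SIGLEC12 at the ROSA26 locus. There the CAG promoter drives it once Cre has removed a floxed EGFP stop cassette, so Siglec-XII is made in epithelial cells. Siglec-XII belongs to a family of sialic acid-binding lectins, but the study describes the human form as unable to bind sialic acids. The table holds no entry under the symbol SIGLEC12. Expression of the transgene was not analysed here, so nothing below checks the genotype labels. All values are on the authors' log2(TPM + 1) scale unless TPM is named, errors are SD between samples, and the depth behind a value is unknown because TPM keeps no read counts.

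Butyrate is made by gut bacteria from dietary fiber and is the main fuel of the mature colonocyte. Slc16a1 (MCT1) takes it up together with a proton and Slc5a8 (SMCT1) together with sodium. Inside the mitochondrion butyryl-CoA is oxidized by the short-chain acyl-CoA dehydrogenase Acads, hydrated by Echs1, oxidized again by Hadh and split by the thiolase Acat1 into acetyl-CoA, which enters the tricarboxylic acid cycle or is made into ketone bodies. Acadl carries out the first of these steps on longer chains, and Bdh1 interconverts the ketone bodies acetoacetate and 3-hydroxybutyrate.

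The starts of these genes differ in base composition, and 3 of them are shown because they belong to the uptake and the first oxidation step of butyrate. RefSeq promoters on GRCm38.p6, 250 bases before to 50 bases after the start, matched 7 of the 8 members, with 8 promoters in all since Bdh1 has 2 starts, and Acat1 had no entry. Capitals mark the GC box, GGGCGG or its reverse complement CCGCCC, read on both strands. The promoters shown lie at chr3:104638414-104638713 on the plus strand, chr10:88885742-88886041 on the plus strand and chr5:115119297-115119596 on the minus strand.
Slc16a1: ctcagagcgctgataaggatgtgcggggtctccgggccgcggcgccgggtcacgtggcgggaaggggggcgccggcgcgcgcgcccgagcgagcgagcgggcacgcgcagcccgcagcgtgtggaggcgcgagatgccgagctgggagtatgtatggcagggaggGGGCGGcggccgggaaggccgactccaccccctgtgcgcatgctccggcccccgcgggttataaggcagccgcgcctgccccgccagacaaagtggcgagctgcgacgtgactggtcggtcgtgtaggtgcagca
Slc5a8: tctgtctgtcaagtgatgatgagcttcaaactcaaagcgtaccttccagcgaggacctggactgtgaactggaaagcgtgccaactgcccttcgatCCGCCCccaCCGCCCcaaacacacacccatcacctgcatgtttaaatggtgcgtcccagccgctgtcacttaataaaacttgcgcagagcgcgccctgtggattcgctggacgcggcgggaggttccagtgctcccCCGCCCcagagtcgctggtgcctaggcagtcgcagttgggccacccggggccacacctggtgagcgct
Acads: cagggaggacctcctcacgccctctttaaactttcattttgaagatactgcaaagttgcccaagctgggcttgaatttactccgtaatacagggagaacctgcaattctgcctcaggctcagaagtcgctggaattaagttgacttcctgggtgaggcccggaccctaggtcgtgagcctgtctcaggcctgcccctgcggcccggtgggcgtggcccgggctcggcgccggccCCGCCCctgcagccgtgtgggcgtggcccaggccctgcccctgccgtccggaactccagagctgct
The Slc16a1 promoter held 42 CpG dinucleotides, more than in 97.0% of the 32851 promoters, whose median was 7. The Slc5a8 promoter held 20 and the Acads promoter 17. A GC box was present 1 time in Slc16a1, 3 times in Slc5a8 and 1 time in Acads, and 35.7% of all promoters held at least 1. Among the others, Acadl and Hadh had 4 GC boxes each, Echs1 had 3, and the 2 starts of Bdh1 had 0 and 1. The CCAAT box (CCAAT or ATTGG), present in 37.4% of all promoters, was found only in Hadh. No member promoter contained TATAAA or TTTATA (13.6% of all promoters) or the estrogen-related receptor element TCAAGGTCA or TGACCTTGA (0.423%).

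The question for the 8 genes was whether epithelial Siglec-XII went with another level of the butyrate pathway in the tumors. No member passed the threshold of a limma adjusted p under 0.05 and a 2-fold change, in either direction, and neither did any of the 10338 genes tested (0% higher and 0% lower). All 8 means were higher in SIGLEC12, by 1.31 to 1.84 times on the log2(TPM + 1) scale, and in 7 members every SIGLEC12 sample lay above every Control sample. That pattern was common in the table: 54.1% of all genes had groups that did not overlap with SIGLEC12 higher, against 1.67% with SIGLEC12 lower. The median log2 fold change of the 8 members was 0.79, and over all genes tested it was 0.38.

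**Figure D1:**
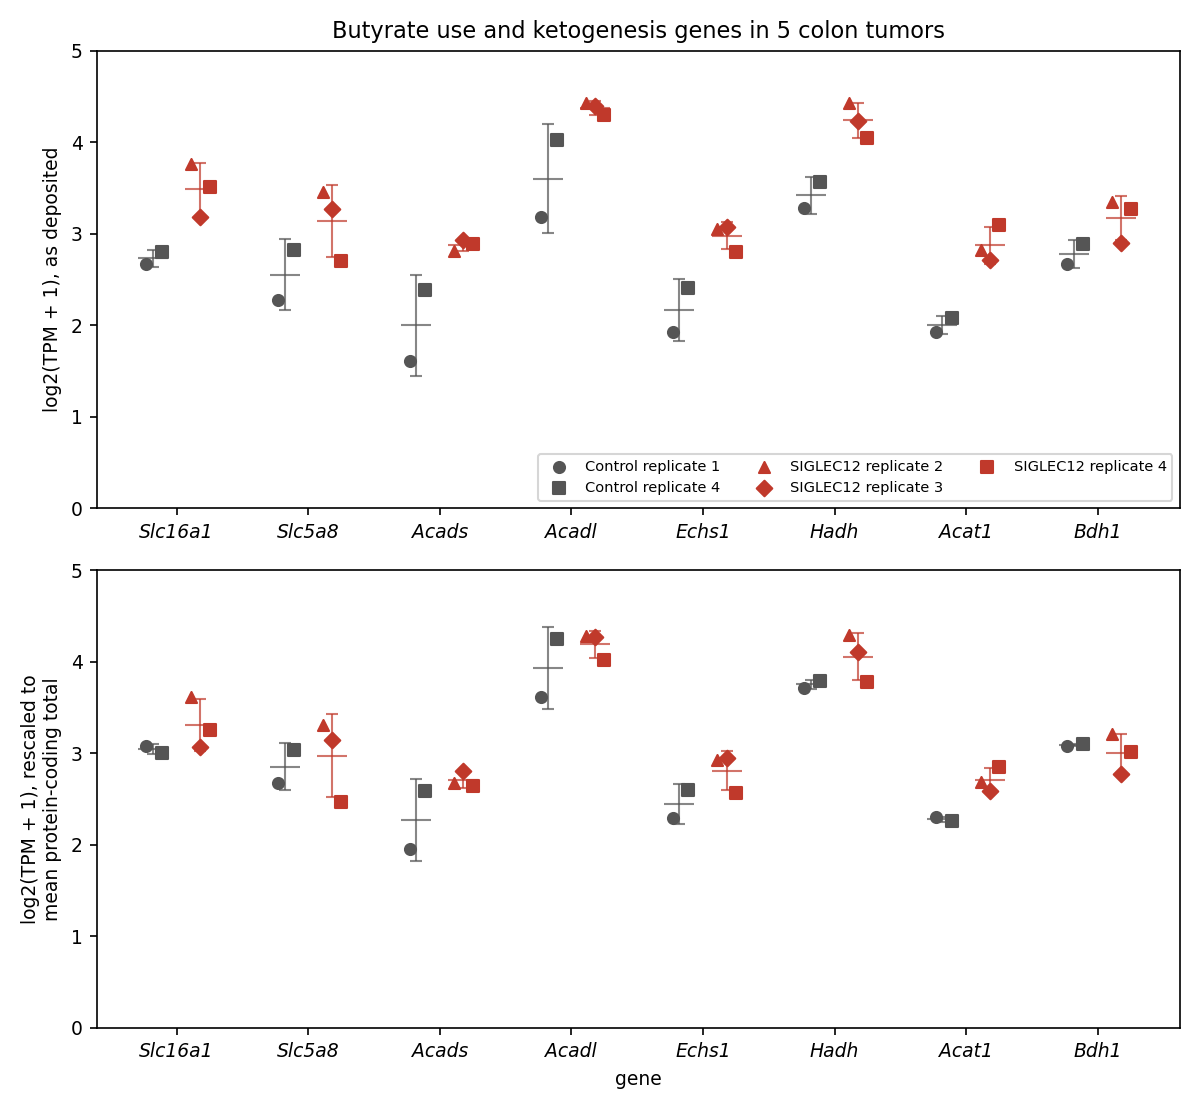
Level of each of the 8 genes in each sample, as log2(TPM + 1), as deposited (top) and with every sample brought to one protein-coding total (bottom). Points are samples, and bars are group means with SD. As deposited, Slc5a8 is the only gene whose groups overlap, and Control replicate 1 is the lowest sample for every gene. On the common protein-coding total, only Acads and Acat1 have groups that do not overlap.

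Of the transporters, Slc16a1 (ENSMUSG00000032902, GRCm38 chromosome 3, 104638668 to 104658462) stood at 2.67 and 2.80 in the Control samples and at 3.76, 3.19 and 3.51 in the SIGLEC12 samples. The groups did not overlap, and the Control samples lay close together. The means were 2.73 ± 0.09 (SD, n = 2) and 3.49 ± 0.29 (SD, n = 3). The difference of the means was 0.75 on the log2 scale with an SE of 0.23 (limma adjusted p = 0.101), and the exact permutation test gave p = 0.1, the smallest that 2 against 3 samples allow.

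Slc5a8 (ENSMUSG00000020062, chromosome 10, 88885992 to 88929515), the sodium-coupled carrier, stood at 2.28 and 2.82 in Control and at 3.45, 3.27 and 2.70 in SIGLEC12. SIGLEC12 replicate 4 lay between the Control samples, so the groups overlapped. The log2 fold change of 0.59 had an SE of 0.29 (limma adjusted p = 0.191, exact permutation p = 0.3). The ratio of the carriers also varied within groups: Slc16a1 exceeded Slc5a8 by a log2 TPM ratio of 0.48 in Control replicate 1 and 0.92 in SIGLEC12 replicate 4, whereas in Control replicate 4 and SIGLEC12 replicate 3 the ratio was slightly below zero (-0.03 and -0.10).

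Among the oxidation enzymes, Acads (ENSMUSG00000029545, chromosome 5, 115110299 to 115119346, minus strand) stood at 1.61 and 2.39 in Control and at 2.81, 2.93 and 2.89 in SIGLEC12. The SIGLEC12 samples were nearly alike (SD 0.06), while the Control samples spread over most of the range (SD 0.55). The means differed by 0.88 with an SE of 0.25 (limma adjusted p = 0.0988). The entry for Acads names a transcript with a retained intron, whereas the entries of the other 7 members name protein-coding transcripts. Annotated genes that overlap a member, among them Paox on the strand opposite Echs1, had at most 1.07 TPM in any sample.

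Acadl (ENSMUSG00000026003, chromosome 1, 66830839 to 66863277), which acts on longer chains, had the highest mean level of the 8, at 3.18 and 4.02 in Control and 4.43, 4.40 and 4.29 in SIGLEC12. Here too the Control samples differed from each other more than the SIGLEC12 samples did. The means differed by 0.77 with an SE of 0.29 (limma adjusted p = 0.124).

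Echs1 (ENSMUSG00000025465, chromosome 7, 140105710 to 140116476), the enoyl-CoA hydratase, stood at 1.92 and 2.40 in Control and at 3.06, 3.07 and 2.81 in SIGLEC12. Hadh (ENSMUSG00000027984, chromosome 3, 131233419 to 131272101), the 3-hydroxyacyl-CoA dehydrogenase of short and medium chains, stood at 3.28 and 3.57 against 4.43, 4.23 and 4.05. Both had all SIGLEC12 samples above the Control samples. The log2 fold change was 0.81, SE 0.22, for Echs1 and 0.82, SE 0.22, for Hadh, each with a limma adjusted p of 0.0974.

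Acat1 (ENSMUSG00000032047, chromosome 9, 53580522 to 53610382), the mitochondrial thiolase that also starts ketone body synthesis, stood at 1.93 and 2.08 in Control and at 2.82, 2.71 and 3.10 in SIGLEC12. Both groups were tight beside the gap between them. Its log2 fold change of 0.87 had the smallest SE of the 8 members, 0.19, and the limma adjusted p was again 0.0974. Acads, Acadl, Echs1, Hadh and Acat1 each had the smallest exact permutation p possible, 0.1.

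Bdh1 (ENSMUSG00000046598, chromosome 16, 31422280 to 31458901), the ketone body dehydrogenase, stood at 2.67 and 2.89 in Control and at 3.34, 2.90 and 3.28 in SIGLEC12. Its groups were separated by only 0.0048, the distance between Control replicate 4 and SIGLEC12 replicate 3. The log2 fold change of 0.39, SE 0.22, was the smallest of the 8 (limma adjusted p = 0.226, exact permutation p = 0.2).

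**Figure D2:**
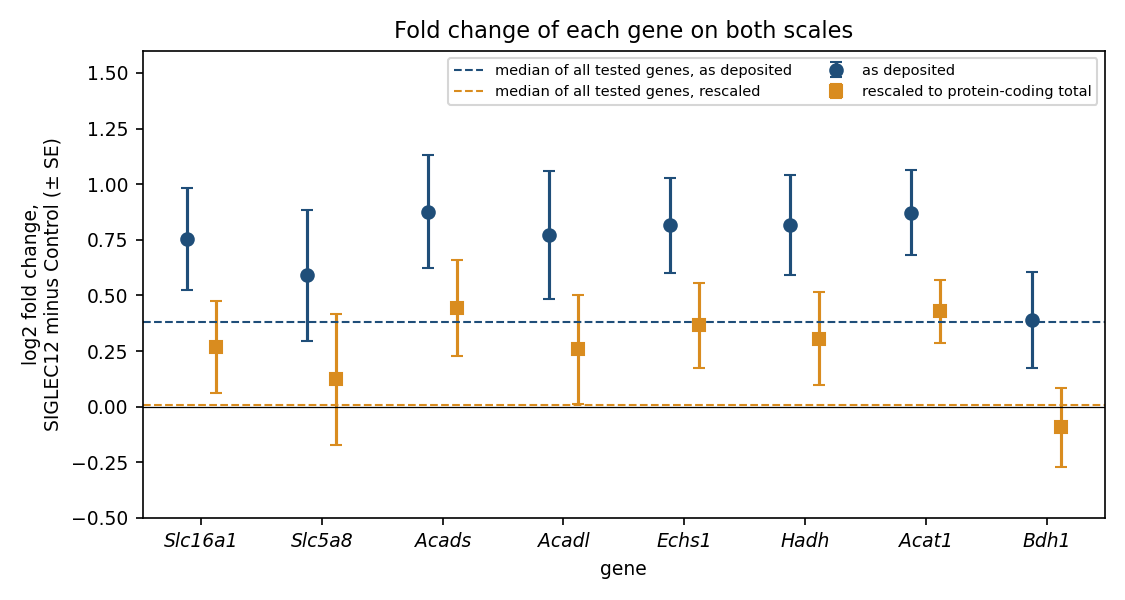
Log2 fold change of SIGLEC12 against Control for each of the 8 genes, with standard errors, as deposited and with every sample brought to one protein-coding total. As deposited the values run from 0.39 to 0.88, and on the common protein-coding total from -0.09 to 0.44.

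Without the adjustment for all genes, 6 of the 8 members had a limma p of at most 0.05 with SIGLEC12 higher and 0 with SIGLEC12 lower. Of all genes tested, 33.4% were on the higher side of that threshold and 0.909% on the lower side. No member also reached 2-fold, which 3.97% of all genes did on the higher side.

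Protein-coding genes took 5.70% and 6.73% of the TPM total in the Control samples and 8.84%, 8.74% and 9.71% in the SIGLEC12 samples. With every sample brought to one protein-coding total, the mean over the 5 samples, the median log2 fold change of the members was 0.29 and that of all genes 0.01. Only Acads and Acat1 still had groups that did not overlap, 2 of 8 members beside 15.7% of all genes on the higher side and 16.8% on the lower side, where the members had 0. Acat1 alone had an unadjusted limma p of at most 0.05, 1 of 8 members beside 4.46% of all genes, and 0 members were lower against 6.28% of all genes.

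After this rescaling Acads stood at 1.95 and 2.58 in Control and 2.68, 2.81 and 2.64 in SIGLEC12, a log2 fold change of 0.44 with an SE of 0.22 (limma adjusted p = 0.465). Acat1 stood at 2.30 and 2.26 against 2.69, 2.59 and 2.85, a log2 fold change of 0.43 with an SE of 0.14 (limma adjusted p = 0.456). Both kept all SIGLEC12 samples above Control, but for Acads the gap to Control replicate 4 was small. Bdh1 turned to -0.09, with 3.08 and 3.10 in Control inside the SIGLEC12 range of 2.78 to 3.21. The remaining members had log2 fold changes of 0.12 (Slc5a8) to 0.37 (Echs1), with groups that overlapped.

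The order of the members by mean TPM over the 5 samples was Acadl (16.5), Hadh (14.7), Slc16a1 (8.47), Bdh1 (7.21), Slc5a8 (6.81), Echs1 (5.56), Acads (5.07) and Acat1 (5.04). TPM is already divided by transcript length, so levels of different genes can be set beside each other. Acadl and Hadh were the top pair in all 5 samples, and of the 7 pairs of neighbours only Hadh over Slc16a1 kept its order in 5 of 5 samples (mean log2 TPM ratio 0.80 ± 0.21, SD). Acadl exceeded Hadh in 3 of 5 samples and Acads exceeded Acat1 in 2 of 5, so these neighbours did not differ beyond their spread.

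A ratio between members within a sample does not move with the scaling of that sample. Summed over the 8 members, TPM came to 39.0 and 56.3 in Control and 92.2, 80.7 and 78.8 in SIGLEC12. Bdh1 made up 13.7% and 11.4% of this sum in Control and 9.92%, 7.99% and 11.0% in SIGLEC12. It was the only member whose share did not overlap between groups. The difference was -2.93 percentage points (exact permutation p = 0.2, adjusted over the 8 shares 0.8) and missed the threshold. The share of Acadl was 23.9% ± 4.53 (SD, n = 2) in the Control samples against 23.6% ± 1.34 (SD, n = 3), and Hadh had mean shares of 20.8% and 21.4%.

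**Figure D3:**
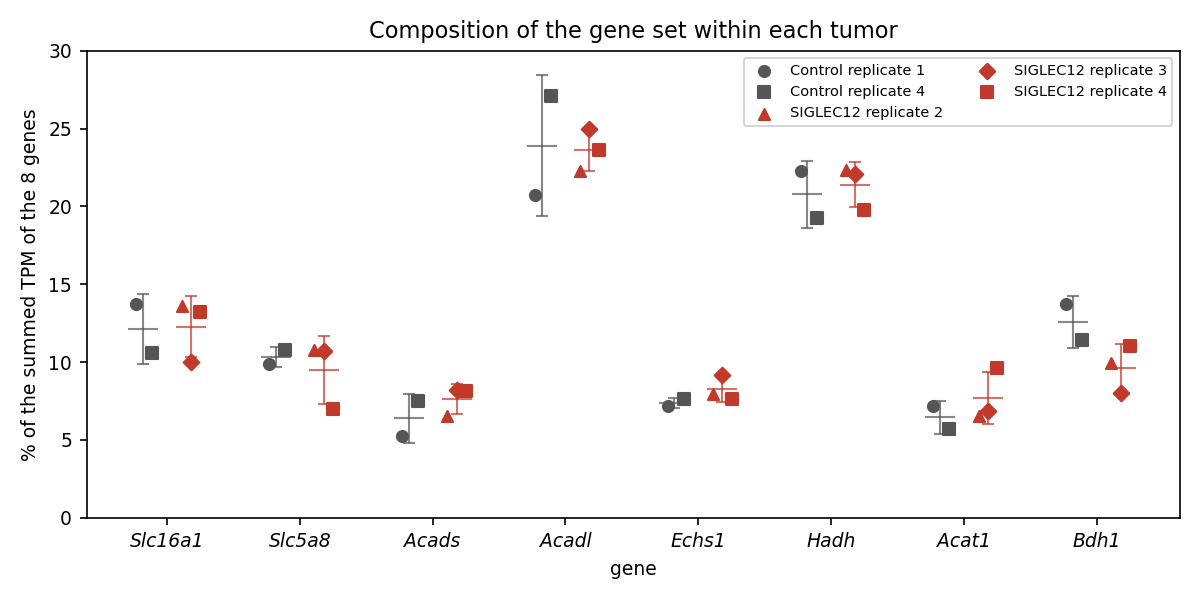
Share of each gene in the summed TPM of the 8 genes, in percent, by sample. Bdh1 has 13.7% and 11.4% in Control and 7.99% to 11.0% in SIGLEC12, and the other shares overlap between groups.

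Of the 28 ratios between members, 6 had groups that did not overlap, and 4 of those 6 included Bdh1. Those 4 share the values of Bdh1, so they are not separate observations. The samples can be divided in only 10 ways, so some ratios can separate without any group difference. How many would do so was not computed, so the count of 6 is a description only. Slc16a1 against Bdh1 had a mean log2 TPM ratio of -0.06 in Control and 0.35 in SIGLEC12 (exact permutation p = 0.1). Acat1 against Bdh1 had -0.96 in Control and -0.34 in SIGLEC12 (exact permutation p = 0.2). Adjusted over the 28 ratios, the exact p of each of the 6 was 0.933.

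The partners of the members were read from lists of the same pathway. Of 6 other monocarboxylate transport genes, 4 were tested and had a median log2 fold change of 0.61. As deposited, 33.4% of all genes were higher at an unadjusted limma p of at most 0.05, and here 1 was. That gene was Bsg (basigin), the chaperone that brings MCT1 to the cell surface, with 5.07 and 5.31 in Control against 6.02, 6.23 and 5.99 in SIGLEC12 (log2 fold change 0.89, SE 0.23, limma adjusted p = 0.0974). Emb (embigin), the other such chaperone, had a log2 fold change of -0.24 with groups that overlapped.

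Acyl-CoA synthetases, which activate short-chain acids, gave 3 tested genes of 7 with a median log2 fold change of 0.57 and 1 at the unadjusted limma threshold. They were Acsm3 at 0.61, Acss1 at 0.57 and Acss2 at 0.51. All 15 other genes of fatty acid oxidation were tested, with a median of 0.58. Of them, 9 were higher at the unadjusted limma threshold, beside 33.4% of all genes. Hsd17b10, a mitochondrial hydroxyacyl-CoA dehydrogenase, had the largest log2 fold change, 0.97 with an SE of 0.19, and Etfa, an electron acceptor of the dehydrogenases, the smallest, 0.34.

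Slc16a6, an exporter of ketone bodies, had a log2 fold change of 0.12 with groups that overlapped. Receptors and regulators gave 6 tested genes of 10, with a median log2 fold change of 0.34 and 0 at the unadjusted limma threshold. Pparg, a nuclear receptor, had 0.94, the largest of them, with groups that overlapped, the mitochondrial deacylase Sirt5 had 0.41, and the butyrate receptor Hcar2 had -0.09. The butyrate receptors Ffar2 and Ffar3 and the regulator Ppara were under 1 TPM in all 5 samples. The tricarboxylic acid cycle, which burns the acetyl-CoA that Acat1 releases, had all 18 genes tested and a median of 0.66. Of these, 12 were higher at the unadjusted limma threshold, beside 33.4% of all genes. The extremes of the cycle were Sdhd, a subunit of succinate dehydrogenase, at 1.07 and Ogdh at 0.24. Neither Slc16a6 nor any gene of these 5 lists had a limma adjusted p under 0.05. On the common protein-coding total the list medians were 0.03 to 0.24, and Etfa, Slc16a6 and Ogdh turned negative (-0.15, -0.27 and -0.27). Of the 5 lists, only Hsd17b10 and Sdhd were then higher at the unadjusted limma threshold, beside 4.46% of all genes. Only Hcar2 was lower at it, beside 6.28% of all genes.

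**Figure D4:**
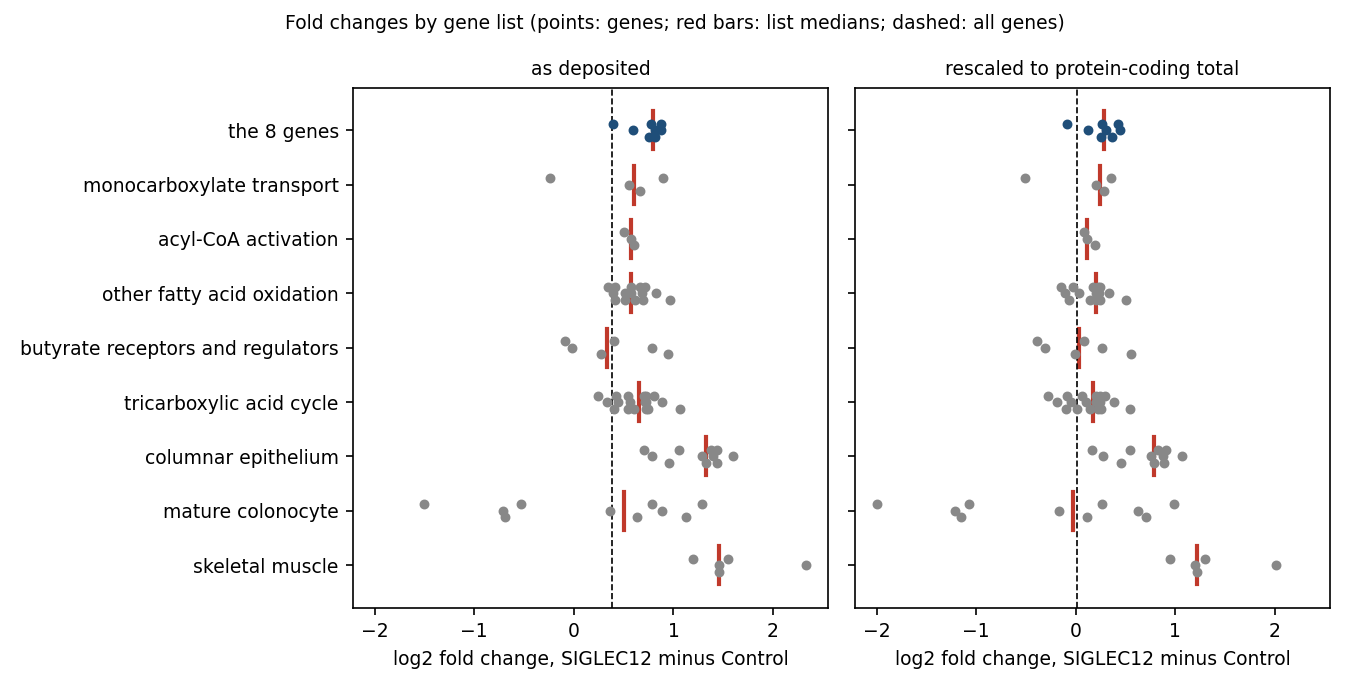
Log2 fold change of SIGLEC12 against Control for the tested genes (points) of the 8 members, 5 pathway lists and 3 marker lists, as deposited and on the common protein-coding total; red bars are list medians and the dashed line is the median of all genes tested. The members lie at 0.79 and 0.29, the tricarboxylic acid cycle at 0.66 and 0.17, and the columnar epithelium list at 1.33 and 0.79.

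Marker lists of other cell types were read beside the members, and no gene of the lists given here had a limma adjusted p under 0.05. Markers of columnar epithelium, which includes the colonocytes, summed to 271 and 761 TPM in Control and to between 967 and 1562 TPM in SIGLEC12. These sums did not overlap. All 11 tested genes of 12 were higher in mean, with a median log2 fold change of 1.33. The keratins Krt19 and Krt8 had the highest levels of this list, with log2 fold changes of 1.38 and 1.44. Squamous epithelium markers, which a pure colon sample should lack, summed to 610 and 2997 TPM in Control and to between 406 and 1125 TPM in SIGLEC12, with 8 of 9 genes tested and a median of -1.01. Among them Krt14 stood at 10.16 in Control replicate 1 and between 5.69 and 7.64 in the other samples, and the log2 fold change of Krt13 was -0.17. Skeletal muscle markers summed to 0.803 and 17.8 TPM in Control and to between 15.4 and 68.6 TPM in SIGLEC12, led by Acta1 and Ckm (log2 fold changes 2.33 and 1.55), with 5 of 6 genes tested and a median of 1.46. The squamous and the skeletal muscle sums overlapped between groups. In none of these lists was a gene at 0 in every sample. In bulk tissue, fewer cells of a type and less RNA per cell cannot be told apart, and the part of these cell types in the values of the 8 genes was not tested.

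Set against the columnar list, the summed TPM of the 8 members was 0.144 and 0.0740 in Control and 0.0923, 0.0834 and 0.0504 in SIGLEC12, and the groups overlapped. Set against protein-coding RNA it was 0.685 and 0.837 per 1000 TPM in Control and 1.04, 0.923 and 0.811 in SIGLEC12, and the groups overlapped there as well.

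Control replicate 1 had the fewest genes at 1 TPM or more (7947, against 9532 in Control replicate 4 and 9837 to 10090 in SIGLEC12) and was the lowest of the 5 samples for all 8 members as deposited and for 4 of 8 on the common protein-coding total. Without it, the median log2 fold change of the members was 0.53, beside 0.26 over all genes tested. Without Control replicate 4 instead, these medians were 0.95 and 0.53. The largest changes were then those of Acads (1.26), Acadl (1.19) and Echs1 (1.05). In these fits the single Control sample was assumed to vary like the SIGLEC12 samples.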

How the data were processed

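RNA-Seq of AOM/DSS colon tumors was analysed in 2 Control and 3 SIGLEC12 samples, grouped by their labels. The series names 3 mice per condition, and the remaining Control mouse is not analysed here. The authors deposited log2(TPM + 1) per gene for 52143 genes, with 0 value columns not mapped to a sample. The submitters' processing notes name kallisto 0.45.0 and GRCm38. The study's methods name a human reference and an mRNA kit, whereas the table holds mouse genes and the labels name a total RNA kit. They also name technical replicate libraries, without saying whether a column is their average. Nothing says which samples were processed together.

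Coordinates came from GENCODE release M21. Genes with a TPM of at least 1 in at least 2 samples (10338, of them 9216 protein-coding) were tested two-sided with limma 3.58.1 in R 4.3.3 (lmFit, eBayes with trend) on log2(TPM + 1), with Benjamini-Hochberg adjustment over all of them. Fold changes are on this scale, and the pseudocount of 1 understates those of low genes. The threshold was an adjusted p under 0.05 and 2-fold. Two-sided exact permutation tests used all 10 ways to divide the samples. The p-values measure only the spread between these samples. The members and gene lists were chosen with earlier results of these data known. Named were all 8 members, per pathway list the genes with the largest and smallest fold change and the smallest p, per marker list the 2 highest genes, and 5 genes with a profile nearest to the member of widest range. Alternatives were another pseudocount, 2 filters, 4 scalings, sample weights and leaving out each sample. Results for some ketone body genes, and for the list that holds them, are not reported here.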

Additional observations from a re-analysis of the deposited data

How the results depend on the processing

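With limma on log2(TPM + 1), a pseudocount of 0.1, either filter and sample weights changed no direction of a member. No member had an adjusted p under 0.05 under any of them. With the pseudocount of 0.1, the log2 fold changes of Acads (1.08) and Acat1 (1.05) exceeded 2-fold, which no member reached as deposited. Scaling changed directions, and the cause was not tested. The median log2 fold change of the members, 0.79 as deposited, was 0.29 on the protein-coding total, 0.38 with median-ratio size factors, 0.25 with quantile normalization and -0.42 when samples were centred on the columnar list, where the median of all genes was -0.83. Under the first 3 scalings the median of all genes was 0.01, 0.08 and 0.03. The number of members higher at an unadjusted limma p of at most 0.05, 6 as deposited, was 1, 3, 1 and 0 under the 4 scalings. Of all genes, 33.4% were higher at that threshold as deposited and 4.46% on the protein-coding total. That share was not computed for the other scalings, so their counts cannot be set beside the whole table. Bdh1 turned to -0.0919, -0.000125 and -0.0888 under the first 3 scalings. Centred on the columnar list, the log2 fold changes were -0.46 for Slc16a1, -0.62 for Slc5a8, -0.34 for Acads, -0.44 for Acadl, -0.40 for Echs1, -0.40 for Hadh, -0.34 for Acat1 and -0.82 for Bdh1.

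Leaving out 1 sample, the median ran from 0.53 to 0.95, the count at an unadjusted p of at most 0.05 from 3 to 7, and the count past adjusted p and 2-fold from 0 to 3. Acat1 also had an adjusted p under 0.05 without Control replicate 4 (0.95, limma adjusted p = 0.0482). For these fits the share of all genes was not computed, so the counts of members cannot be set beside the whole table. The highest counts and the adjusted p of Acat1 came from leaving out Control replicate 4. That left 1 Control sample, so the spread within Control could not be estimated. The median log2 fold change of all genes was then 0.53, against 0.38 with every sample. The share of Acadl differed by -3.50 percentage points without Control replicate 1 and by 2.91 without Control replicate 4, against -0.30. Chosen after seeing the data was leaving out 1 sample on the protein-coding total. The median was then 0.17 and 0.38 without Control replicates 1 and 4, and 0.20, 0.29 and 0.37 without SIGLEC12 replicates 2, 3 and 4. The count at an unadjusted limma p of at most 0.05 was 0, 1 and 0 without those SIGLEC12 replicates. Here too the share of all genes was not computed. Bdh1 was -0.100 and -0.0838 without Control replicates 1 and 4, and -0.194, 0.0196 and -0.101 without SIGLEC12 replicates 2, 3 and 4. Slc5a8 was -0.0576 without Control replicate 1 and -0.0473 without SIGLEC12 replicate 2, and Acadl -0.0587 without Control replicate 1. The counts at an unadjusted p under the alternatives were also added after seeing the data. No paired analysis was possible because replicate number 4 alone occurs in both groups. TPM keeps no depth, so counting error is unknown.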

Other observations

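The 5 protein-coding genes whose profile over the 5 samples lay nearest to that of Acads, the member with the widest range (1.32 on the log2 scale), were Serhl, Tsta3, Adk, Aldh1l1 and Tspan3. Their root mean square distances from the centred profile of Acads were 0.0260, 0.0406, 0.0440, 0.0469 and 0.0520 log2 units, among 9215 genes compared, and this is a description of 5 samples.

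Mature colonocyte markers were mixed in direction. All 10 were tested, with a median log2 fold change of 0.50, and 6 were higher in mean. The groups did not overlap in 3 with SIGLEC12 higher and in 1 with SIGLEC12 lower, beside 54.1% and 1.67% of all genes. On the common protein-coding total the median was -0.03, with 1 higher and 2 lower without overlap, beside 15.7% and 16.8% of all genes. None had a limma adjusted p under 0.05. Their summed TPM of 106 and 283 in Control lay around the SIGLEC12 range of 166 to 223. Car1 and Car2, carbonic anhydrases with the highest levels of this list, had log2 fold changes of -0.53 and 0.36 with groups that overlapped. Fibroblast markers summed to between 8.71 and 10.5 TPM in Control and between 18.0 and 57.9 TPM in SIGLEC12, with log2 fold changes of 1.75 for Dcn and 1.44 for Col3a1, and smooth muscle markers to between 45.3 and 52.0 TPM against 45.7 and 112 TPM, with 0.57 for Tagln and 0.31 for Acta2. Myeloid markers summed to at most 17.7 TPM (Lyz2 1.08 and Itgam 0.12 on the log2 fold change scale), adipocyte markers to at most 7.37 TPM and endothelial markers to at most 4.98 TPM in any sample. T cell, B and plasma cell, and nerve and glia markers summed to at most 1.19, 1.50 and 0.748 TPM, and no gene of these last 3 lists was tested.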
